A study of Danio rerio with 4 samples.

Results

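The comparison set 1 polyA+ library of zebrafish embryos at 4.8 hpf against 1 ribo-depleted library of the same stage, gene by gene. Of the 25769 genes in the deposited table, 11239 had at least 100 reads in at least one of these 2 libraries and were compared. For each of them the reads were divided by the library total, and the log2 ratio of the polyA+ to the ribo-depleted share was taken, so that a positive log2 ratio marks a gene read more in the polyA+ library. The embryos were wild-type AB/TL fish, pooled in samples of 25, injected at the 1-cell stage with 4sU (4-thiouridine, a uridine analog that is built into new transcripts), and collected at 30% epiboly. The study's methods give 50 mM 4sU and 4.8 hpf for this stage and the sample labels give 20 mM and 6 hpf. The series holds 4 bulk libraries, the other 2 being the polyA+ and the ribo-depleted library of 4-cell embryos at 1 hpf, which received the same injection. The sources used here do not say whether both libraries of a stage came from the same pool of embryos.

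PolyA+ selection captures RNA by its poly(A) tail, whereas ribo-depletion keeps RNA with or without a tail and removes ribosomal RNA. Most mRNAs carry a tail, but mRNAs of replication-dependent histones end in a stem-loop instead, and RNAs made by RNA polymerase III, most spliceosomal RNAs and small nucleolar RNAs have no tail. In the fish egg and early embryo the length of the tail is itself regulated: stored maternal mRNAs can hold short tails that are lengthened when the mRNA is translated and removed when it is cleared. SLAM-Seq reads the newly made share of each gene from T-to-C changes, and the new-to-total RNA ratio (NTR) is the estimated share of a gene's reads that come from labeled, newly transcribed RNA.

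Library totals were 10212400 reads for polyA+ and 17814709 for ribo-depleted RNA, with 9058 and 11113 genes at 100 reads or more. T was read as C at 1.496% of covered T bases in polyA+ and 1.317% in ribo-depleted, against 0.177% and 0.232% at 1 hpf. In bulk libraries such as these, fewer cells of a type and less RNA per cell cannot be told apart. The polyA+ library was made with a stranded mRNA kit and sequenced in single 75 nt reads on a NextSeq, and the ribo-depleted library with a total RNA kit in paired 100 nt reads on a NovaSeq, so that RNA selection, kit, instrument and read layout cannot be told apart. With 1 library a side no test between library types was possible, and the intervals given below for single genes are exact 95% intervals (Clopper-Pearson) that cover counting error only. Most markers of the embryo's layers were read in both libraries. Among them was krt4 of the enveloping layer (370 reads per 1000000 reads of the library, or RPM, in polyA+ and 266 in ribo-depleted). The mesoderm marker tbxta had 268 and 189 RPM, and the ectoderm marker sox3 185 and 117. The keratin krt18b, also chosen as an enveloping layer marker, had only 2.5 reads in polyA+ and 1 in ribo-depleted. The embryonic globin hbae1.1 had 0 reads in both, and the muscle actins acta1b and actc1b had at most 34 reads in a library.

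Most genes were read at nearly the same share in both libraries. The median log2 ratio over the 11239 genes was -0.09 (95% interval of the median -0.10 to -0.07), and the middle 50% of genes lay between -0.50 and 0.34. At a limit of 2-fold, 893 genes (7.95%) were higher in the polyA+ library and 1085 genes (9.65%) were higher in the ribo-depleted library. With 100 or more reads asked of both libraries, 8932 genes remained and the balance turned. Of these, 770 (8.62%) were higher in polyA+ and 439 (4.91%) in ribo-depleted, and the median was 0.016. Of the 11239 genes, 2181 had under 100 reads in polyA+ and 126 in ribo-depleted. The minimum let in more genes through the deeper ribo-depleted library, so the split and the median of the 11239 genes depend on it. The percentages 7.95% and 9.65% carry this limit and are the background for every count of genes past 2-fold below. The counting interval of the log2 ratio had a median half-width of 0.21, and it excluded 0 for 8152 genes. The 2 sides differed in shape. Toward polyA+, 696 genes lay between 2-fold and 4-fold, 129 had a log2 ratio from 2 to 3, 36 from 3 to 4, and 32 a log2 ratio of 4 or more. Toward ribo-depleted, 741 genes had a log2 ratio between -1 and -2, 79 between -2 and -3 and 14 between -3 and -4, while 251 genes lay at -4 or lower, apart from the rest. Near the read minimum, the 255 genes with 100 to 110 reads in their higher library had a median log2 ratio of -0.19, and the 292 genes just left out, with 90 to 100 reads, one of -0.11.

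**Figure D1:**
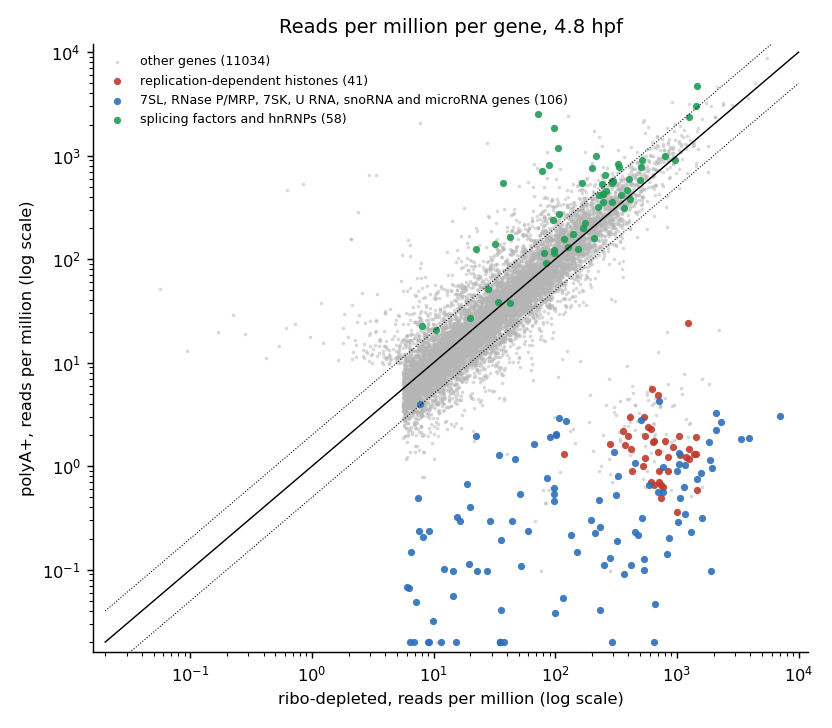
Reads per 1000000 library reads (RPM) of each of the 11239 genes in the ribo-depleted library (x axis) and the polyA+ library (y axis) at 4.8 hpf, both on log scales, with the line of equal share and dotted lines at 2-fold; values under 0.02 are drawn at 0.02. Histone genes (red) and short noncoding RNA genes (blue) form a group far below the line, with grey unlisted genes among the histones, and several hnRNP genes (green) lie well above it.

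Replication-dependent histone genes stood farthest apart among the mRNAs. All 41 of these genes that had enough reads (of 42 listed by name) were 2-fold or more higher in the ribo-depleted library. Their log2 ratios ran from -11.43 to -5.67, with a median of -9.05. The 42 genes had 948 polyA+ reads together, so most of the 41 entered the comparison through their ribo-depleted reads. The read minimum itself therefore favored low ratios among them. The histone H4 gene hist1h4l.6 had 6 polyA+ reads (0.588 RPM) and 26276 ribo-depleted reads (1475 RPM), a log2 ratio of -11.29 (-12.74 to -10.17). At the other end of the list, the H3 gene hist2h3c had 24.3 RPM in polyA+ and 1239 in ribo-depleted, a log2 ratio of -5.67 (-5.86 to -5.49). Together the 42 listed genes took 0.0093% of the polyA+ reads and 3.16% of the ribo-depleted reads. Their share of labeled reads was larger still: reads multiplied by NTR gave them 9.50% of the labeled ribo-depleted reads against 0.033% of the labeled polyA+ reads, and the median of their mean NTR was 57.1%. Read counts of 40 of the 41 were not whole numbers. Reads divided between near-identical gene copies would give such counts, though this was not tested, so values of single copies are uncertain. Among all 11239 compared genes the read counts of 4549 were not whole, which is the background for such counts below.

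The listed variant and linker histone genes went the other way, with 1 exception. Of the 10 variant and linker histone genes with enough reads, 4 were 2-fold or more higher in polyA+ and 1 in ribo-depleted, and the median log2 ratio was 0.73. The H3.3 gene h3f3d had 1089 RPM in polyA+ against 86.1 in ribo-depleted, a log2 ratio of 3.66 (3.58 to 3.74). The H2A.Z gene h2az2b had 766 and 71.4 RPM, a log2 ratio of 3.42 (3.34 to 3.51). The exception was h2ax, the variant phosphorylated at DNA breaks, whose mRNA in mammals exists both with a stem-loop end and with a tail: it had 20.7 RPM in polyA+ and 2201 in ribo-depleted, a log2 ratio of -6.74 (-6.94 to -6.54). The list of histone 3' end factors holds 6 genes, which are ordinary mRNAs, and includes npat, the activator of histone transcription. These 6 had log2 ratios from -0.44 (eri1) to 1.16 (npat, the only gene of the 6 past 2-fold). The gene slbp, whose product binds the stem-loop, lay at 0.16.

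The short RNAs of the translation, splicing and RNA-processing machinery were also read far less in the polyA+ library. Most of them entered the comparison through their ribo-depleted reads, so that the read minimum itself favors low ratios among them, and reads under 3 were taken as 3, which makes a ratio at that floor a limit. All 69 compared genes (of 80) for the 7SL RNA of the signal recognition particle, which guides secreted proteins to the endoplasmic reticulum, were higher in ribo-depleted, with a median log2 ratio of -9.64, and the 80 listed genes together took 5.41% of its reads and 0.0052% of the polyA+ reads. The copy rn7sl1 alone had 31 polyA+ reads (3.03 RPM) and 125298 ribo-depleted reads (7033 RPM), a log2 ratio of -11.18 (-11.74 to -10.67). The 7SK RNA gene rn7sk, whose product holds back transcription elongation, had 1.03 and 1168 RPM, a log2 ratio of -10.15 (-11.28 to -9.34). The RNase MRP gene rmrp (CR847546.1) had 0 polyA+ reads and 644 RPM in ribo-depleted, which makes it at least 2194-fold lower in polyA+ at a floor of 3 reads per library. Only 22 of 240 spliceosomal and U3 RNA genes and 6 of 42 small nucleolar and Cajal body RNA genes had enough reads, each of them through the ribo-depleted library, and their median log2 ratios were -5.63 and -5.33. Over the whole lists, whatever their reads, the spliceosomal and U3 genes took 0.0018% of polyA+ reads against 0.082% of ribo-depleted reads, and the small nucleolar and Cajal body genes 0.0016% and 0.037%. In these short genes the NTR differed by family: the 7SL genes had a median of their mean NTR of 3.43%, the spliceosomal and U3 genes 51.6%, and rn7sk had an NTR of 49.95% in ribo-depleted RNA. Of the 4 microRNA genes with enough reads, 3 were copies of mir-430a, the microRNA family that clears maternal mRNAs in fish, among them dre-mir-430a-13 with 5.53 polyA+ and 917 ribo-depleted reads, a log2 ratio of -6.57 (-7.90 to -5.33). The other 2 copies had 1.03 and 0.70 polyA+ reads against 217 and 107 ribo-depleted reads.

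Outside the lists, 106 further genes lay at a log2 ratio of -4 or lower, a limit chosen after the values were seen. Their mean NTR was high: 103 of the 106 had one of 25% or more, and the median was 61.1%. Of all 11239 compared genes, 1446 had a mean NTR of 25% to 50%, 711 of 50% to 65% and 842 of 65% or more. Most of the 106 entered the comparison through their ribo-depleted reads. They took 0.030% of the polyA+ reads, so the polyA+ part of their mean NTR rests on few reads. Their share was 5.54% of the ribo-depleted reads and 17.3% of the labeled ribo-depleted reads. Among the 106 were H3C3 (4.11 RPM in polyA+ and 644 in ribo-depleted, log2 ratio -7.29) and si:ch211-113a14.26 (0.636 and 1612, log2 ratio -11.31). The NTR of si:ch211-113a14.26 was 78.3% in ribo-depleted and 78.9% in polyA+, where it rests on few reads. Most of the others carry clone names only. The listed lengths recurred: 12 of these genes were 411 bases long, 9 were 375, 5 were 387 and 5 were 312. Of the listed histone genes 12 are 312 bases long and 8 are 387, but 0 are 411 or 375, and 91 of the 106 genes share no length with a listed histone gene. The histones were listed by name, and the list did not hold H3C3. These lengths therefore cannot tell whether an unlisted gene is a histone gene, which was not tested. Read counts were not whole for 99 of the 106. All 251 genes at -4 or lower together took 14.8% of all ribo-depleted reads and 30.01% of the labeled ones, against 0.048% of the polyA+ reads.

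Gene length moved with this group, since 197 of the 251 genes were under 500 bases. The 276 compared genes under 500 bases had a median log2 ratio of -6.93 (-7.41 to -6.50), with 205 higher in ribo-depleted and 18 in polyA+. All 1699 genes under 500 bases, compared or not, took 0.77% of polyA+ reads against 12.2% of ribo-depleted reads. This median rested on genes that reached 100 reads in the ribo-depleted library only and on genes whose read counts were not whole. It was 0.26 over short genes with 100 or more reads in both libraries and 0.07 over those with whole read counts. Above 500 bases the median changed little with length, from -0.01 for genes of 500 to 1000 bases to -0.16 for those over 5000 bases. The part of gene length and read layout in the ratios of short genes was not tested.

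On the polyA+ side, mRNAs of splicing factors and hnRNPs, the proteins that coat and splice nascent transcripts, had the highest median log2 ratio of the mRNA lists, at 0.81. Of 58 genes, 21 (36.2%) were 2-fold or more higher in polyA+ and 0 in ribo-depleted, and 52 lay above 0. The 63 listed genes took 3.63% of the polyA+ reads and 1.61% of the ribo-depleted reads. Read counts of 33 of the 58 compared genes were not whole, so values of single paralogs are less certain than their counting intervals. The hnRNP A/B gene hnrnpaba had 2508 RPM in polyA+ and 72.8 in ribo-depleted, a log2 ratio of 5.11 (5.03 to 5.19), and its NTR was 17.6% and 20.6%. Its paralog hnrnpabb, with more reads, had 4738 and 1464 RPM and a log2 ratio of 1.69 (1.67 to 1.72). The paralogs of hnRNP A1 both stood high: hnrnpa1b had 1832 and 97.3 RPM, a log2 ratio of 4.23, and hnrnpa1a 715 and 78.5, a log2 ratio of 3.19. The spliceosomal U2 subunit gene sf3b4 (544 and 37.2 RPM, log2 ratio 3.87) differed from its partner sf3b3 (901 and 970, log2 ratio -0.11), so members of 1 complex did not share 1 ratio. Among the SR proteins the log2 ratio ranged from 0.12 (srsf10b) to 2.18 (srsf6a), and the lowest member of the whole list was hnrnpc at -0.36 (-0.44 to -0.28). Newly made and stored members were found on the same side, since srsf5a with an NTR of 68.9% in polyA+ and 74.0% in ribo-depleted had a log2 ratio of 1.92 and srsf7a with 4.10% and 4.52% one of 1.32.

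**Figure D2:**
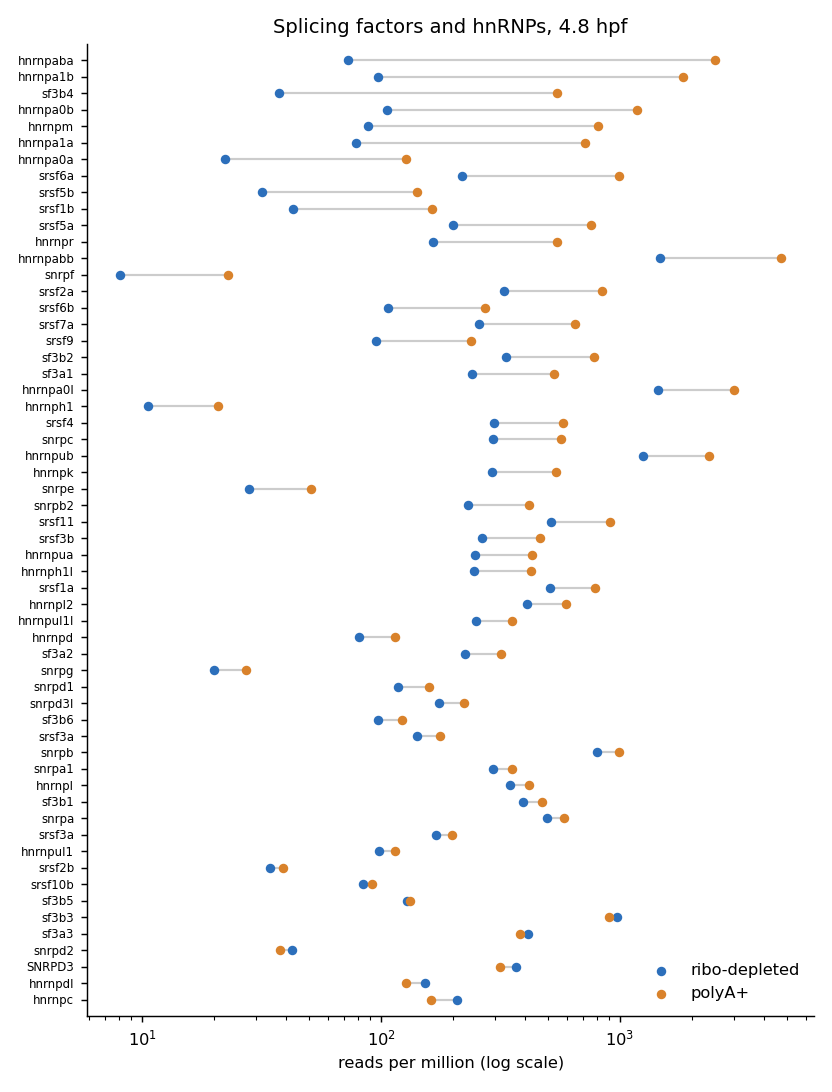
RPM (log scale) of the 58 splicing factor and hnRNP genes in the polyA+ library (orange) and the ribo-depleted library (blue) at 4.8 hpf, ordered by log2 ratio; the row labels are gene names, and 1 name stands for 2 gene entries (srsf3a). The polyA+ point lies to the right for 52 of the 58 genes, and the widest gap is that of hnrnpaba, at 2508 against 72.8 RPM.

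A few genes for nuclear RNA-binding proteins outside the list also lay far out. They are named after their values were seen, and others such as pspc1 (-0.70), srek1 (-0.82) and rbm39a (0.19) did not lie there. The FET family gene taf15 had 1338 RPM in polyA+ and 27.3 in ribo-depleted, a log2 ratio of 5.62. The RNA-binding gene rbm4.3 had 2398 and 128 RPM, a log2 ratio of 4.23, and the splicing coactivator gene srrm1 834 and 67.5, a log2 ratio of 3.63. The export adaptor gene alyref had 1738 and 207 RPM, a log2 ratio of 3.07. All 4 had 100 or more reads in each library at 1 hpf as well, with log2 ratios of 6.31, 4.99, 4.21 and 3.12. The 197 genes with a log2 ratio of 2 or more had a median mean NTR of 11.5% and took 5.04% of polyA+ reads against 0.644% of ribo-depleted reads. Among genes of low NTR the names that ranked highest were nme2b.2, a nucleoside diphosphate kinase, at 6.28 and r3hdm1 at 4.43 (138 and 6.399 RPM).

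The genes ranked highest toward polyA+ by their counting interval were short and without a name. ENSDARG00000114192, of 246 bases, had 467 RPM in polyA+ and 0.621 in ribo-depleted, a log2 ratio of 9.56 (8.72 to 10.57), and AL935186.10, of 432 bases, had 2067 and 7.68, a log2 ratio of 8.07 (7.83 to 8.32). Of the 10 genes so ranked, 9 were under 500 bases and BX088707.1, of 1872 bases, was the other. Of the listed genes for ribosomal RNA, the target of depletion, 1 had enough reads. This 5.8S gene, AL935186.2, had 21.6 RPM in polyA+ and 0.617 in ribo-depleted, a log2 ratio of 5.13. It entered the comparison through its polyA+ reads, so the read minimum itself favored a high ratio. Whatever their reads, the 175 listed rRNA genes together took 0.0038% of polyA+ reads and 0.0015% of ribo-depleted reads. RefSeq (GRCz12tu, matched by symbol) lists 1 further compared gene, zgc:158463, as rRNA, and it had 313 and 17.7 RPM, a log2 ratio of 4.15. Of the genes named here, AL935186.10 and zgc:158463 were also among those picked for the largest NTR difference between libraries. The NTR was 1.33% in polyA+ and 90.02% in ribo-depleted for AL935186.10 and 3.75% and 51.6% for zgc:158463. The 5.8S gene had a mean NTR of 8.7%.

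The machinery that shortens, lengthens and binds poly(A) tails leaned toward polyA+, with 9 of 45 genes (20.0%) 2-fold or more higher there, 0 in ribo-depleted and a median of 0.42. The cytoplasmic poly(A)-binding protein gene pabpc1a had 2213 RPM in polyA+ and 536 in ribo-depleted, a log2 ratio of 2.05 (2.01 to 2.08). The egg-specific form pabpc1l lay at 0.00, with 135 RPM in both. Genes of the CCR4-NOT deadenylase were spread from -0.92 (cnot7) to 2.18 (cnot4a). The maternal deadenylation adaptor btg4 had 35.5 and 63.4 RPM, a log2 ratio of -0.84 (-1.01 to -0.66), while its zygotic relative btg1, with an NTR of 66.6% in polyA+, had 280 and 111 and a log2 ratio of 1.34.

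Genes of the large housekeeping complexes were read evenly. Of 85 cytosolic ribosomal protein genes, 2 were 2-fold or more higher in polyA+ (RPL26 at 1.07 and rpl28 at 1.02), 0 in ribo-depleted, and the median was 0.06. Proteasome genes gave 0 of 39 past 2-fold in either direction, with log2 ratios from -0.82 (psmd3) to 0.53 (psma6a). Mitochondrial ribosomal protein genes had 1 of 60 past 2-fold (mrpl43 at 1.19) and a median of -0.03. Translation factors and their regulators were more spread, with 9 of 70 higher in polyA+, led by the start-site factor eif1 (394 and 80.3 RPM, log2 ratio 2.29), and 3 in ribo-depleted, eif2s1b at -1.27, eif2b2 at -1.09 and the kinase eif2ak1 at -1.03. In oxidative phosphorylation 3 of 79 genes lay on each side. The lowest of them was atp5f1b, the catalytic subunit of the ATP synthase, with 204 RPM in polyA+ and 831 in ribo-depleted, a log2 ratio of -2.02 (-2.09 to -1.96). Replication genes had 0 of 34 higher in polyA+ and 1 in ribo-depleted (cdc45 at -1.27), the p53 and apoptosis genes 0 and 1 of 14 (the p53 target bbc3 at -1.15), and the fish-specific znf1000-series zinc fingers 9 and 8 of 135 with a median of -0.08. Read counts of 130 of the 135 zinc finger genes were not whole. Of the 10 finTRIM genes 2 were higher in ribo-depleted (ftr19 at -1.36 and ftr81 at -1.06). Of the 30 compared genes that RefSeq (GRCz12tu, matched by symbol) lists as lncRNA, 4 were higher in polyA+ and 2 in ribo-depleted, with a median of 0.06. Of the 4 long noncoding RNAs found by name, 1 was higher in polyA+ (si.ch73.46j18.5 at 1.57), and oip5.as1 lay at -0.09. Leaving the histone and noncoding RNA lists out of the library totals lowers every log2 ratio by 0.14 (an alternative added after seeing the data), which turns the medians of the cytosolic ribosomal protein, proteasome, cyclin, p53 and histone 3' end lists below 0.

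**Figure D3:**
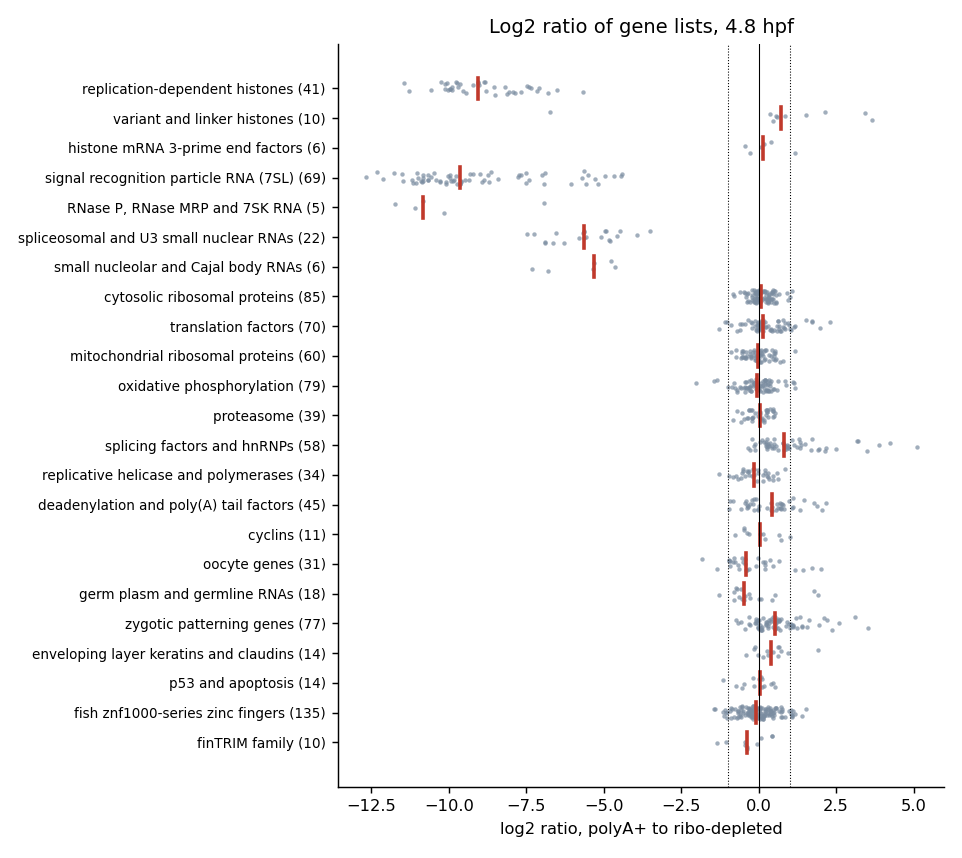
Log2 ratio of polyA+ to ribo-depleted at 4.8 hpf for each member of the gene lists with 5 or more compared genes (grey points; the number of genes in parentheses; points are spread vertically for visibility), with the list median as a red bar, a line at 0 and dotted lines at 2-fold. Replication-dependent histones and short noncoding RNAs lie between -12.67 and -3.50, and the medians of the mRNA lists lie between -0.47 and 0.81.

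Genes of high and low NTR were then compared. The classes hold different genes, so a difference between them is not one between new and stored RNA of the same gene. The median log2 ratio rose with the mean NTR, from -0.20 in the 1836 genes under 1% to 0.13 in the 842 genes at 65% or more. The medians of the classes between were -0.17, -0.09, -0.03, -0.02 and -0.02, so the classes from 10% to 65% did not differ beyond their intervals. The median of the high class (65% or more) was 0.32 above that of the low class (under 5%, 4362 genes), with a range of 0.23 to 0.40 from the intervals of both medians. Past 2-fold toward polyA+ were 10.5% of the high and 6.12% of the low class, and toward ribo-depleted 11.2% and 10.5%. Without genes under 500 bases, 11.0% of the high class lay past 2-fold toward polyA+ and 6.88% toward ribo-depleted. By length the difference of the medians was 0.14 for genes of 500 to 1500 bases, 0.39 for 1500 to 3000 and 0.37 for longer genes. Across genes the Spearman correlation of mean NTR and log2 ratio was 0.13, over points that share both libraries and their totals. The lower tail differed more than the median: the 5th percentile was -7.08 in the high class and -1.41 in the low class. It was -6.12 in the high class without the histone and noncoding RNA genes and -1.22 without genes under 500 bases. The rescaling by -0.14 lowers both classes alike, which brings the median of the high class to about 0 and leaves the difference between the classes as it was.

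**Figure D4:**
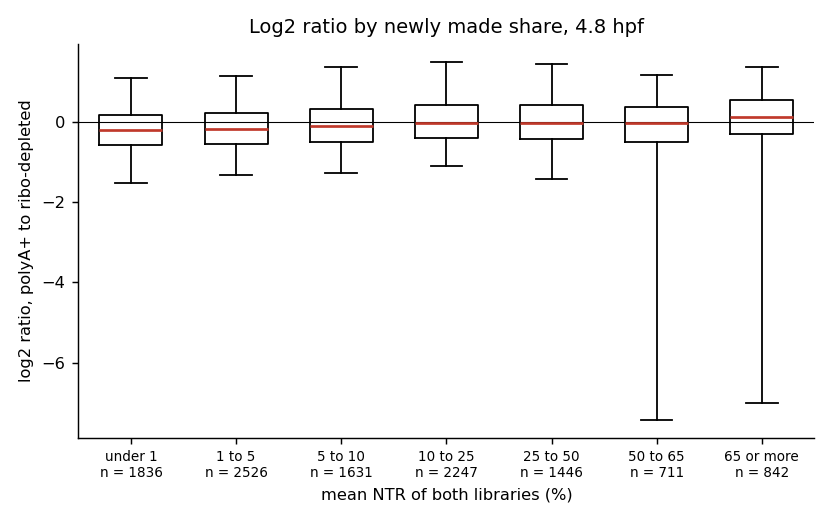
Log2 ratio of polyA+ to ribo-depleted at 4.8 hpf by class of the mean NTR of both libraries (boxes are the middle 50% of genes, red lines the medians, whiskers the 5th and 95th percentiles; n is the number of genes). The median goes from -0.20 under 1% to 0.13 at 65% or more, and the lower whiskers of the classes of 50 to 65% and of 65% or more reach to about -7.

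The zygotic patterning genes set up the axes and germ layers from the embryo's own genome. They lay further toward polyA+ than the high class as a whole. That class had a median of 0.13, with 10.5% of genes past 2-fold toward polyA+ and 11.2% toward ribo-depleted. Another list of mostly new RNA, the znf1000-series zinc fingers (median NTR 63.9%), had a median of -0.08. Of 77 genes, with a median NTR of 73.5%, 21 (27.3%) were 2-fold or more higher in polyA+ and 0 in ribo-depleted, the median was 0.52 and 62 lay above 0. Highest in the list were gata2a and gata3, GATA factors of the ventral side, while gata5 and gata6 of the endoderm lay lower. The gene gata2a had 62.2 RPM in polyA+ and 5.44 in ribo-depleted, a log2 ratio of 3.51 (3.203 to 3.837), gata3 had 168 and 19.6 (3.10), gata5 113 and 42.8 (1.40) and gata6 288 and 133 (1.11). Forkhead factors of the endoderm differed, with foxa3 at 1.55 and foxa2 at 0.52. Several secreted signals lay near or below 0, though not all, since the BMP antagonist chrd was at 0.47. The Nodal ligands ndr1 and ndr2 had log2 ratios of -0.09 and -0.28, their antagonists lft1 and lft2 -0.57 and -0.02, fgf3 and fgf8a 0.03 and 0.06, and the lowest member was the repressor her5 at -0.73 (25.3 and 41.8 RPM). The mesodermal factor tbx16, with the most reads of the list, had 865 and 469 RPM and a log2 ratio of 0.88. Among keratins and claudins of the enveloping layer 1 of 14 passed 2-fold, krt5 at 1.90, and epcam was lowest at -0.40. Read counts of 11 of the 14 were not whole. Outside the lists the high class also held znf703 (17.8 and 1.99 RPM, log2 ratio 3.16), fetub (2.72) and crabp2b (2.63).

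Of the 3 lists of maternal supply, those of oocyte and of germ plasm genes had medians below 0, while some of their members lay above. The 31 oocyte genes had a median of -0.41, with 11 above 0, 4 past 2-fold toward polyA+ and 2 toward ribo-depleted, and the 18 germ plasm and germline genes a median of -0.47, with 6 above 0 and 2 and 1 past 2-fold. The median NTR was 0.23% and 0.17% in these lists. The meiotic kinase gene mos had 1.99 RPM in polyA+ and 7.11 in ribo-depleted, a log2 ratio of -1.84 (-2.62 to -1.18), and the Balbiani body organizer buc had 217 and 316, a log2 ratio of -0.54. Among germ cell determinants dnd1 (-0.79), dazl (-0.62) and nanos3 (-0.46) were read less in polyA+, whereas the helicase gene ddx4 had 526 and 153 RPM, a log2 ratio of 1.78 (1.71 to 1.85), and ddx43 1.92. Egg coat genes split by family: the 4 zp2 genes of the list lay from 0.66 (zp2.2) to 1.73 (zp2.1) and the 7 zp3 genes from -1.34 (zp3f.1) to 0.15 (zp3a.2). Of the 11 cyclins 1 passed 2-fold (ccng2 at 1.00). The maternal cyclin gene ccna1 (851 and 1441 RPM) was at -0.76, ccnb1, with an NTR of 12.4% in polyA+, at -0.37, and ccnd1, with an NTR of 69.2%, at 0.74. The 3 maternal activators of the zygotic genome did not share a direction, with pou5f3 at 1.17 (1860 and 825 RPM), nanog at 0.17 and sox19b at -0.50.

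Within single genes, labeled and unlabeled RNA could be set side by side, so that RNA of the same gene is compared. In 4814 genes with 100 or more reads and an NTR of 5% to 95% in both libraries, the log2 ratio of labeled RNA exceeded that of unlabeled RNA by a median of 0.06 (0.04 to 0.08), and it was larger in 53.7% of the genes. The difference ran opposite to the total ratio. In the 164 of these genes that were 2-fold or more higher in ribo-depleted, it was 0.37 (0.23 to 0.48), with a median log2 ratio of -0.99 for labeled and -1.28 for unlabeled RNA. In the 489 genes 2-fold or more higher in polyA+ it was -0.17 (-0.21 to -0.10), with 1.39 and 1.54. The error of an NTR estimate lowers one ratio as it raises the other, and its part was not tested.

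In single genes the difference could be large: the labeled log2 ratio exceeded the unlabeled one by 1 or more in 304 of the 4814 genes and fell short of it by 1 or more in 370. The genes that follow were picked for their NTR difference or as the lowest of their list. The mitotic kinase gene melk had an NTR of 52.1% in polyA+ and 12.3% in ribo-depleted: its labeled RNA was 14.3 and 9.60 RPM, and its unlabeled RNA 13.1 and 68.5. The cyclin-dependent kinase gene cdk1 had NTRs of 63.1% and 24.8%, with labeled RNA at 11.3 and 7.58 and unlabeled RNA at 6.57 and 22.9 RPM. The pattern was shared by cdc45, a subunit of the replicative helicase, with 8.78 and 3.80 labeled and 10.5 and 42.8 unlabeled, and for atp5f1b, with 65.5 and 40.6 labeled and 139 and 790 unlabeled RPM. In these 4 genes the labeled RNA was read more in polyA+ and the unlabeled RNA more in ribo-depleted. The other genes with the largest NTR differences in this direction were klc1a and the genes ENSDARG00000108812 and ENSDARG00000100366. The kinesin light chain gene klc1a had T read as C at 5.54% in polyA+ and 0.035% in ribo-depleted. In the opposite direction stood, besides AL935186.10 and zgc:158463, the chaperone gene hspa8b (17.8% and 96.2%), CIR1 (10.6% and 56.9%) and selenok (1.79% and 47.5%).

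The ratio of a gene at 4.8 hpf resembled its ratio at 1 hpf but was smaller. Over the 7376 genes with 100 or more reads in each of the 4 libraries the Pearson correlation was 0.66, where all points share the same 4 libraries. The SD of the log2 ratio across genes was 1.13 at 1 hpf and 0.72 at 4.8 hpf, and 34.4% and 13.7% of the genes lay past 2-fold. The log2 ratio was higher by 1 or more at the later stage in 1213 genes (16.4%) and lower by 1 or more in 422 (5.72%), with a median change of 0.12. Every ratio is scaled to library totals, whose make-up changed between the stages. Genes under 500 bases took 4.845% of the ribo-depleted reads at 1 hpf and 12.2% at 4.8 hpf, and 0.479% and 0.769% of the polyA+ reads. The part of this in the changes of the ratios was not tested. Both stages hold 1 library of each type, so the change has no replicate check. The proteasome genes shifted together: 17 of 27 were higher by 1 or more, 0 were lower, and their median went from -1.21 to 0.11. Mitochondrial ribosomal protein genes went from -0.86 to 0.01 with 15 of 33 higher by 1 or more, and cytosolic ones from -0.40 to 0.02 with 23 of 79. Splicing factors and hnRNPs moved down, from 1.22 to 0.80, with 0 of 56 higher and 4 lower by 1 or more. The share that was lower by 1 or more was near the 5.72% of all genes, while 16.4% of all genes were higher by 1 or more. The ratios of all genes drew together between the stages (SD 1.13 and 0.72). The part of this in the shifts of the lists was not tested.

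Cytoskeletal and chaperone genes were among the 5 with the largest rise of the ratio. The alpha-tubulin gene tuba8l had 11.7 RPM in polyA+ and 261 in ribo-depleted at 1 hpf, and 58.1 and 82.4 at 4.8 hpf, so that its log2 ratio went from -4.48 to -0.50. The spectrin gene sptan1 went from -4.37 to -0.52, the chaperonin subunit cct3 from -4.08 to -0.51, tubb2b from -2.82 to 0.72 and the initiation factor eif3d from -3.40 to 0.07. All 5 had NTRs of 27.7% to 71.9% in the late libraries. The 5 genes with the largest falls had NTRs of at most 12.2%. Low NTRs were common among the 7376 genes, of which 3246 had a mean NTR under 5% and 3001 one of 5% to 25%. The ubiquitin ligase gene trim36, with NTRs of 1.09% and 0.45%, had 621 RPM in polyA+ and 268 in ribo-depleted at 1 hpf and 35.0 and 123 at 4.8 hpf, and its log2 ratio went from 1.21 to -1.81. The meiotic inhibitor fbxo43 went from 1.06 to -1.63, srgap1b from 1.56 to -1.04, the tail-extending enzyme tent4a from 1.09 to -1.48 and akap9 from 2.35 to -0.21. In all 5 RPM fell in both libraries, and by more in polyA+.

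**Figure D5:**
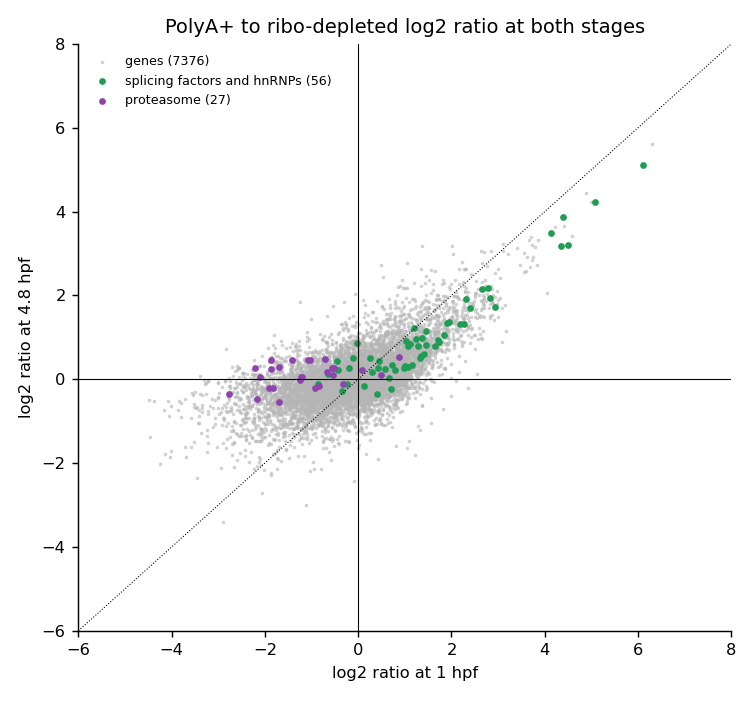
Log2 ratio of polyA+ to ribo-depleted at 1 hpf (x axis) and 4.8 hpf (y axis) for the 7376 genes with 100 or more reads in each of the 4 libraries, with lines at 0 and a dotted line of equal ratios. Points spread more along the x axis (SD 1.13) than the y axis (SD 0.72), proteasome genes (purple, 27) lie mostly above the dotted line with a median of -1.21 at 1 hpf and 0.11 at 4.8 hpf, and splicing factors and hnRNPs (green, 56) lie mostly at the upper right.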

How the data were processed

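The authors used cutadapt 3.5 for trimming, STAR 2.7.10a for alignment to GRCz11 (Ensembl release 102) and GRAND-SLAM 2.0.5f for labeling. The deposited table gives per gene and library an estimated count of reads (not normalized, not always whole), the NTR as a fraction from 0 to 1, the T-to-C conversions and the T coverage as a summed signal, and the gene length. The sources do not say which summary of the posterior the NTR is. Each library was recognised from its stage and sequencing run, which the labels tie to library type. Shares of library totals were compared as log2 ratios, with reads under 3 taken as 3. NTR classes use the mean NTR of both libraries. Whole means within 1e-06 of a whole number. Genes were named from the table (20200), a symbol list (4488) or by identifier (1081). The code was tested on simulated counts. Python 3.11.15, numpy 2.4.6, pandas 2.3.3, scipy 1.17.1 and, for TMM factors only, edgeR 4.0.16 in R 4.3.3 were used.

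The genes, lists and limits were chosen with earlier results of these data known, and the noncoding lists were split by family after their matching names had been seen. Named are the 10 genes ranked highest each way by the end of their counting interval nearer 0, the 5 ranked highest each way among genes of high and of low NTR, the 5 with the largest NTR difference and the 5 with the largest change between stages in each direction, and members of each list at its ends, with the most reads or needed to describe it. The counted depth, 10212400 and 17814709 reads, sets the interval of each ratio. The alternatives changed the read minimum, the use of genes whose read counts were not whole, the scaling, the length range, the NTR limits, the fold limit and the correlation. No sequence is shown.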

Additional observations from a re-analysis of the deposited data

Results flagged for a closer look

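In 11 genes the ratio lay past 2-fold toward one library at 1 hpf and past 2-fold toward the other at 4.8 hpf. The difference between the stages was not tested, since each stage holds 1 library of each type. In 6 of them the log2 ratio was positive at 1 hpf and negative at 4.8 hpf: trim36 (1.21 and -1.81), fbxo43 (1.06 and -1.63), tent4a (1.09 and -1.48), raver1 (1.32 and -1.21), dip2cb (1.29 and -1.10) and srgap1b (1.56 and -1.04). In all 6 the reads per 1000000 library reads (RPM) fell in both libraries, for raver1 from 865 to 70.4 in polyA+ and from 347 to 163 in ribo-depleted. In the other 5 it was negative at 1 hpf and positive at 4.8 hpf: ube2v1 (-1.25 and 1.84), dab2 (-1.02 and 1.45), atp5mc1 (-1.11 and 1.13), si.dkeyp.46h3.8 (-1.80 and 1.05) and cct7 (-1.10 and 1.01). Of these, dab2, an endocytic adaptor with a mean NTR of 0.20%, went from 80.9 to 120 RPM in polyA+ and from 164 to 44.1 in ribo-depleted. The chaperonin subunit cct7, with a mean NTR of 14.7%, went from 66.1 to 293 in polyA+ and was at 142 and 146 in ribo-depleted.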

How the results depend on the processing

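The median log2 ratio of -0.09 turned to 0.016 with 100 or more reads asked of both libraries. It was -0.023 at a minimum of 1000 reads, -0.052 with whole read counts, -0.045 with TMM and, in an alternative added after seeing the data, -0.215 without the histone and noncoding RNA lists, a rescaling that moves every log2 ratio by -0.14, so list medians within 0.14 above 0 would turn. The count of 893 genes higher in polyA+ was 383 at 1000 reads, 502 with whole counts and 376 at 3-fold, and that of 1085 in ribo-depleted was 439 with 100 reads in both, 1858 at 20 reads, 429 at 1000 reads, 469 with whole counts and 459 at 3-fold, where the 3-fold limit was also added later. The difference of 0.32 between high and low NTR was 0.40 with whole counts, 0.22 at limits of 50% and 10% and 0.14 for genes of 500 to 1500 bases. The median of -6.93 for genes under 500 bases was 0.26 with 100 reads in both libraries, 0.066 with whole counts, -3.02 at 20 reads and -8.92 at 1000 reads. The correlation of 0.66 between stages was 0.69 at 1000 reads and 0.61 as Spearman's rho, and the labeled minus unlabeled difference of 0.06 was 0.10 at 1000 reads and 0.091 with whole counts. In the counts by minimum and fold limit, fewer or more genes enter by construction. For the other values the cause was not tested. The remaining 29 values kept their direction, with counts within 1.5 times, among them 1299 genes higher in polyA+ at 20 reads, 770 with 100 reads in both, and 709 higher in polyA+ and 1228 in ribo-depleted without the lists, where the polyA+ side held 36.6% in place of 45.1% of genes past 2-fold. Depth limits genes with few polyA+ reads, of which 2181 had under 100. No paired analysis was possible because each stage holds 1 library of each type and the replicate numbers are not tied to libraries.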
